A study of Mus musculus with 2 samples.

Results

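Olfm4-positive cells of mouse small intestinal organoids were described in a single-cell RNA sequencing data set. A cell was a member if it held at least 2 unique molecular identifiers (UMIs, counted RNA molecules) of Olfm4 and fewer than 5 UMIs of Chgb, an enteroendocrine granule gene, per 10000 UMIs. Of 4066 kept cells, 182 were members. To be kept, a barcode needed 500 detected genes, 1000 UMIs and a mitochondrial share no higher than 20%. The labels list 1 untreated control and 1 library treated with melatonin, a hormone made by the pineal gland and the gut, and each library pooled cells from 3 independent organoid lines on day 3 of culture. Neither strain, sex, age, intestinal segment nor melatonin dose is spelled out in the labels, and no sorting step is described. The files of both samples were identical in 3 of 3 pairs and hold 1 matrix, in which each barcode ends in suffix 1 (set 1) or suffix 2 (set 2). Nothing in the labels ties a suffix to a treatment, so control and melatonin were not compared, and it is unknown which set, if either, was exposed to melatonin.

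Intestinal organoids are epithelial cultures with crypt-like buds in which Lgr5-expressing stem cells divide and give rise to absorptive and secretory cells. Wnt signalling, which receptors of the Lgr5 family strengthen, sustains these stem cells, and Notch signalling keeps them from a secretory fate. Olfm4 encodes olfactomedin 4, a secreted glycoprotein of crypt base cells whose transcription depends on Notch and is also raised by NF-kB signalling. Igfbp4 encodes a secreted protein that binds insulin-like growth factors. Ifitm3 encodes a membrane protein, induced by interferons, that limits virus entry. Fmr1nb lies beside Fmr1 on the X chromosome and is best known from testis.

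The 250 bases before the annotated start of each of these marker genes are shown because their RNAs were found together in some members, 24 of 172 in set 1. The sequences are from RefSeq on build GRCm38.p6, 5′ to 3′ on the gene's strand. They cover chr14:80000052-80000301 on the plus strand for Olfm4, chr11:99040994-99041243 on the plus strand for Igfbp4, chr7:141010745-141010994 on the minus strand for Ifitm3 and chrX:68761589-68761838 on the plus strand for Fmr1nb. Capitals mark matches to the searched motifs.
Olfm4: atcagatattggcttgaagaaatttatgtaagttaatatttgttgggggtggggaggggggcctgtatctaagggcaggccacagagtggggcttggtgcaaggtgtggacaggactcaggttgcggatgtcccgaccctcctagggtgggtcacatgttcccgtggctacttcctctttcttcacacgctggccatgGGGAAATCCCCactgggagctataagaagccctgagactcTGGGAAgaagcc
Igfbp4: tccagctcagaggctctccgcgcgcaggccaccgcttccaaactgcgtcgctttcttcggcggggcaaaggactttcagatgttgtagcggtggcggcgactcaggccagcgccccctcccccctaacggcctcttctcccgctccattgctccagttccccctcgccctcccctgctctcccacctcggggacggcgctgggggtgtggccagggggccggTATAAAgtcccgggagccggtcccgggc
Ifitm3: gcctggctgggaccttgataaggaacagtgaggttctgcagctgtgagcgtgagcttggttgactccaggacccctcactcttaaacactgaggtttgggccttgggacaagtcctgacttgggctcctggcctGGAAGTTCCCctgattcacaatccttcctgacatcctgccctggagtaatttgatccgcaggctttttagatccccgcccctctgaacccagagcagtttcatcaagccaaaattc
Fmr1nb: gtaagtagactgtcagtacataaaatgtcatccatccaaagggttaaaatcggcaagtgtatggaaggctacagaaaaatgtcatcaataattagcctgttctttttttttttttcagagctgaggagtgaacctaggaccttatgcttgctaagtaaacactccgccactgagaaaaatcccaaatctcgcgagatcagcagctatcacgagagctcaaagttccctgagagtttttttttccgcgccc

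Motifs were searched on both strands from 250 bases before to 50 bases after the start, and overlapping matches were kept. The letters TGGGAA, bound by the Notch effector RBPJ, occurred once for Olfm4 with the first base at position -12, and were present in 25.6% of 32851 mouse promoters of that length. A search for the NF-kB motif found overlapping matches for Olfm4 from -52 and 1 match for Ifitm3 from -116, against 8.46% of all promoters. The interferon-stimulated response element, searched as GAAA, any 2 bases and GAAA again, had 2 matches for Ifitm3 just after the start, against 3.44% of all promoters. Those 2 sites are shown with the match in capitals, and their first matched bases lie at positions 3 and 20 after the start.
Ifitm3 first site: aaattcagGAAAAGGAAActtctgag
Ifitm3 second site: acttctgaGAAACCGAAActgccgca
The TATA letters TATAAA occurred once for Igfbp4 at -28, against 13.6% of all promoters. The Wnt-effector letters ATCAAAG were found in none of the 4 windows, against 3.73% of all promoters. Fmr1nb held none of the motifs searched. These matches are descriptions of letters in these windows and no binding was measured.

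Members made up 172 of 2300 kept cells in set 1 (7.48%, 95% exact interval 6.44 to 8.63%) and 10 of 1766 in set 2 (0.566%, 0.272 to 1.04%). Both intervals cover counting error only, as do all others here, since each set is a single pool of cells and there is no replicate and no test. Members of set 1 had a median of 39966.5 UMIs and 5473.5 genes per cell, with 9.36% mitochondrial UMIs. Lgr5-positive cells without Olfm4, the comparison cells, had at least 2 Lgr5 UMIs, 0 Olfm4 UMIs and the same Chgb limit. They numbered 917 in set 1, with a median of 36155 UMIs, 5218 genes and 9.18% mitochondrial UMIs, and 692 in set 2. The Chgb limit removed 4 cells of set 1 and 0 of set 2 that met the Olfm4 limit. Across both sets 29 barcode sequences occurred with both suffixes, and 0 members carried one of them.

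Olfm4 was spread very unevenly over the members. In set 1 the lowest member held 2 UMIs, the median member 5 and the highest 103, and the 10 highest cells held 35.2% of the 1911 Olfm4 UMIs. Members together held 91.5% of the 2088 Olfm4 UMIs of all kept cells of set 1. Just outside the limit stood 146 cells with 1 Olfm4 UMI, and just inside it stood 44 cells with exactly 2. Summed over members, Olfm4 stood at 284 UMIs per 1000000 UMIs (CPM; 271 to 297) in set 1. In set 2 the 10 members held 23, 15, 6, 4, 4, 3, 3, 2, 2 and 2 Olfm4 UMIs, a sum of 64 or 154 CPM (119 to 197), and 31 further cells held 1. Members held 64.6% of the 99 Olfm4 UMIs of all kept cells of set 2, and the 2 highest of them held more than all other members together.

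**Figure D1:**
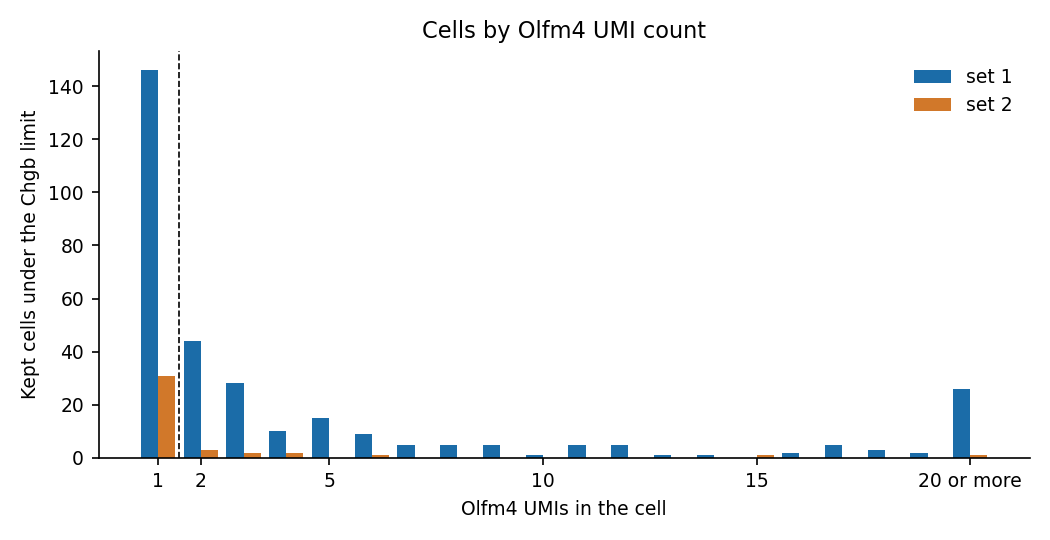
Number of kept cells under the Chgb limit (y axis) by the number of Olfm4 UMIs in the cell (x axis, last bar 20 or more), for set 1 and set 2; cells without Olfm4 are left out and members lie to the right of the dashed line. Set 1 has 146 cells at 1 UMI and a long tail up to 103, and set 2 has 31 cells at 1 UMI and 10 members.

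Enteroendocrine cells, which should lack Olfm4, gave a gauge of free RNA. In the 433 cells of set 1 with Chgb at or above the limit, Olfm4 stood at 6.43 CPM (4.37 to 9.13), and in the 324 such cells of set 2 at 0.816 CPM (0.222 to 2.09). With each cell thinned to 2000 UMIs, 34.5% of set 1 members and 0.826% of the Chgb-rich cells were expected to show an Olfm4 UMI. That thinning left out 3 members and 125 Chgb-rich cells. Median depth was 39966.5 UMIs in all members and 12172 in all Chgb-rich cells of set 1. Without thinning the share of members is 100% by the rule, and their thinned share follows from the same choice. Of the Chgb-rich cells, 4.85% held an Olfm4 UMI before thinning. How many cells with 1 or 2 Olfm4 UMIs owe them to free RNA was not tested.

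Lgr5, the receptor that defines crypt base stem cells, was present in 163 of 172 members of set 1 (94.8%, 90.3 to 97.6%), although the rule did not ask for it. Its summed level was 138 CPM (129 to 147) in members and 138 CPM (134 to 142) in comparison cells, which had been picked for Lgr5. After thinning to 2000 UMIs the expected shares with an Lgr5 UMI were 24.4% of members, 25.1% of comparison cells and 2.61% of Chgb-rich cells. Unthinned, 14.3% of the Chgb-rich cells held an Lgr5 UMI. Cells with more Olfm4 more often held Lgr5. The share was 73.9% of 1549 cells with 0 Olfm4 UMIs, 84.9% with 1, 86.4% with 2, 97.4% with 3 to 4, 94.9% with 5 to 9 and 100% of the 51 cells with 10 or more. Median depth was 32408 UMIs in the first of these bins and 42751 in the last, and its part in the order was not tested. In set 2, 9 of 10 members held Lgr5 (90%, 55.5 to 99.7%), at 77.2 CPM (52.8 to 109) against 124 CPM (120 to 129) in its comparison cells. Of the 1401 cells of set 2 with 0 Olfm4 UMIs, 65.3% held Lgr5, a share inside the interval of its members. Lgr5 was thus present in nearly all members of set 1, while the 10 members of set 2 are too few to set them apart from other cells.

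Members were next set against the comparison cells of set 1, gene by gene, over 12986 genes with at least 10 UMIs in both groups together. A gene was called when the ratio on the CPM + 1 scale was at least 2-fold and the Poisson intervals did not overlap. By this rule 30 genes were higher in members (0.231% of those tested) and 56 were lower (0.431%). Without the 2-fold limit, 457 genes had a higher level in members with intervals apart (3.52%) and 681 a lower one (5.24%), and the median log2 ratio of all genes was -0.02. Since the cells were chosen by their own RNA, every ratio below is a description of the choice and not a finding about it.

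**Figure D2:**
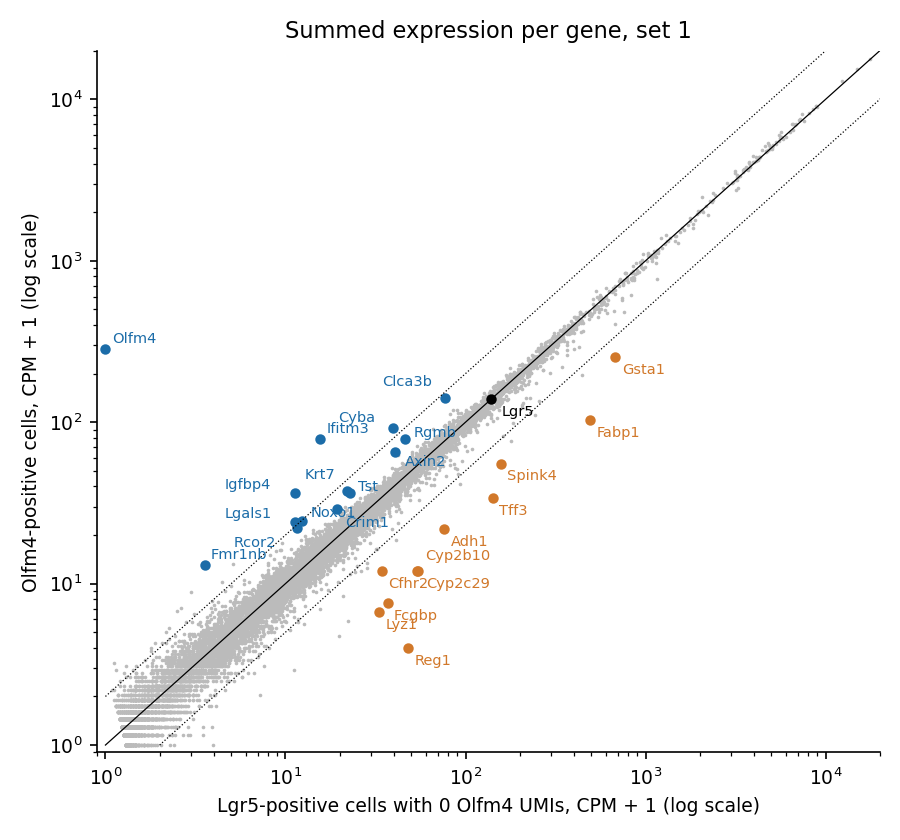
Each point is a gene of set 1, with CPM + 1 summed over 917 Lgr5-positive cells without Olfm4 on the x axis and over 172 Olfm4-positive cells on the y axis, both log scales; the solid line marks equality and the dotted lines a 2-fold difference. Most genes lie along the solid line, Lgr5 on it, Ifitm3, Igfbp4 and Fmr1nb above the upper dotted line, and Reg1, Fabp1 and Tff3 below the lower one.

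The 3 other marker genes were among the largest ratios. Ifitm3 stood at 77.6 CPM (71.1 to 84.6) in members and 14.7 CPM (13.4 to 16) in comparison cells, a log2 ratio of 2.33. Igfbp4 stood at 35.5 CPM (31.2 to 40.3) against 10.3 CPM (9.25 to 11.5), a log2 ratio of 1.69. Fmr1nb stood at 12 CPM (9.56 to 15) against 2.56 CPM (2.05 to 3.17), a log2 ratio of 1.87. Each of these differences rested on a minority of members. Ifitm3 was detected in 34.9% of members, Igfbp4 in 27.9% and Fmr1nb in 15.7%, against 13.3%, 14.8% and 3.16% of comparison cells. At 2000 UMIs, the expected share with Ifitm3 was 10.5% of members, 2.29% of comparison cells and 1.21% of Chgb-rich cells, and for Igfbp4 it was 4.77%, 1.69% and 0.948%. Fmr1, the neighbour of Fmr1nb, had a log2 ratio of 0.01, at 47.0 CPM in members and 46.7 CPM in comparison cells.

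Cyba and Noxo1, which both encode parts of NADPH oxidases, were also among the largest ratios. Cyba, the membrane subunit p22phox, was at 91.0 CPM (83.9 to 98.5) against 38.4 CPM (36.4 to 40.6), a log2 ratio of 1.22. Noxo1, the organizer of the NOX1 enzyme, was at 23.5 CPM (19.97 to 27.4) against 11.3 CPM (10.2 to 12.5), a log2 ratio of 0.99. Cyba was detected in 77.3% of members and 59.1% of comparison cells. The other genes among the 12 with the largest ratios at 20 CPM or more were the galectin Lgals1 (1.10), the corepressor Rcor2 (0.94), Clca3b (0.87), Rgmb (0.77), the simple-epithelium keratin Krt7 (0.77), Axin2 (0.70), Tst (0.68) and Crim1 (0.60).

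Crypt stem cell and Wnt target genes stood slightly higher in members as a list, with few large ratios. Of 25 genes on the list, 23 were tested, 13 had a higher level with intervals apart and 0 a lower one, where 3.52% of all genes were higher. The list median was 0.26 against -0.02 for all genes, and the list holds Lgr5, by which the comparison cells were picked. Axin2, a feedback inhibitor and common readout of Wnt signalling, was at 64.7 CPM (58.7 to 71.0) against 39.6 CPM (37.4 to 41.7). Ascl2, a transcription factor of crypt base stem cells, was at 14.0 CPM (11.3 to 17.1) against 7.23 CPM (6.35 to 8.21). Clca3b, which the list counts among crypt genes, was at 140 CPM (131 to 149) against 75.9 CPM (73.0 to 78.9), and Rgmb, a coreceptor of BMP signalling, at 77.7 CPM (71.2 to 84.7) against 45.2 CPM (43.0 to 47.6). Smoc2 had a log2 ratio of 0.23 and Slc12a2 of 0.21, and Sox9, at 0.13, had overlapping intervals. Only Fstl1 passed the 2-fold limit, from 13 UMIs in members and 5 in comparison cells.

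Notch genes did not move as a list. Of 14 tested, Lfng and Notch1 had a higher level with intervals apart and Hes1 a lower one, with a list median of -0.0039. Notch1, the receptor, was at 22.3 CPM (18.9 to 26.2) against 16.2 CPM (14.8 to 17.6). Lfng, an enzyme that modifies Notch receptors, was at 4.61 CPM (3.13 to 6.54) against 2.26 CPM (1.78 to 2.83). Hes1, a Notch target, was at 317 CPM (304 to 331) against 353 CPM (347 to 360). In the IGF list 6 of 16 genes were tested, and beside Igfbp4 the receptor Igf2r was higher with intervals apart, at 31.2 CPM (27.1 to 35.7) against 24.1 CPM (22.5 to 25.8). The growth factors' signalling receptor Igf1r had 17 UMIs in members and overlapping intervals.

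The interferon list showed no shared rise beside Ifitm3. Of 13 tested genes, Ifitm3 and Ifitm2 were higher with intervals apart, and the chemokine Cxcl10 was lower, at 11 CPM (8.64 to 13.8) against 25.1 CPM (23.5 to 26.9). The list median was -0.08. Of 14 NF-kB targets tested, 0 were higher and 3 were lower with intervals apart, namely Cxcl16, Tnfaip3 and Nfkbia, with a list median of -0.24.

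**Figure D3:**
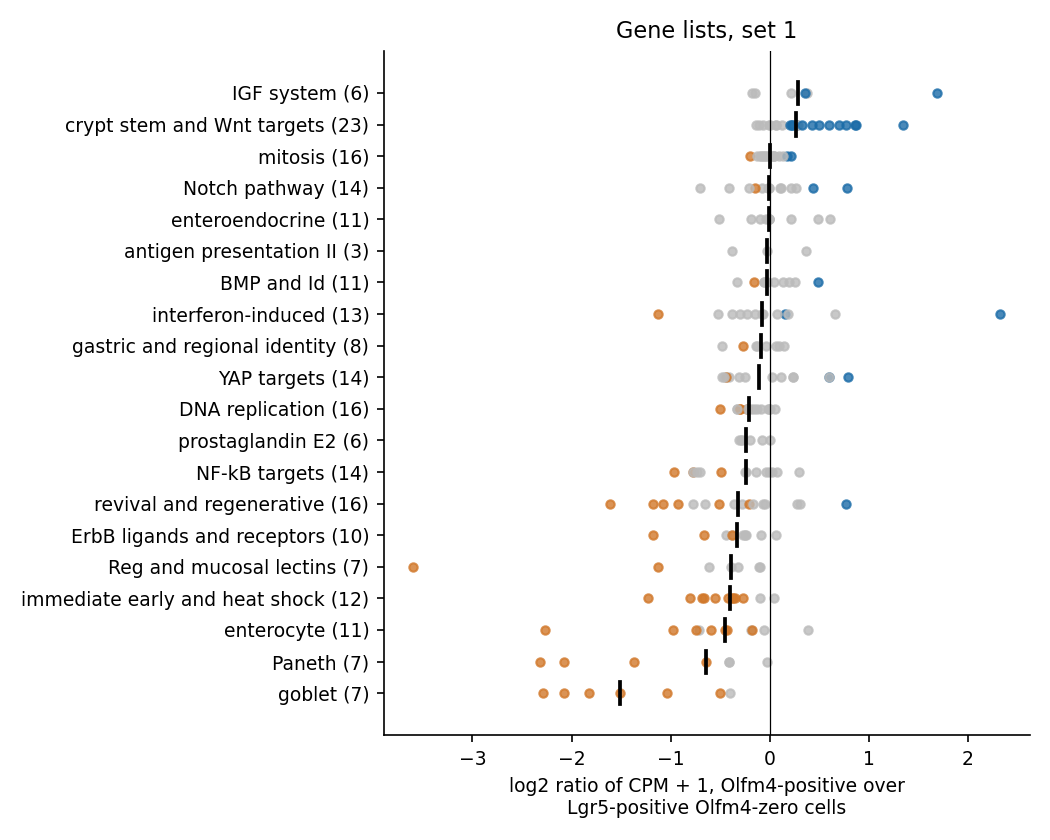
Log2 ratios of CPM + 1 (x axis) in set 1, Olfm4-positive cells over Lgr5-positive cells without Olfm4, for the genes of each list (y axis, number tested in brackets); blue and orange points have intervals apart, grey points do not, and black bars are list medians. The crypt list has 13 blue and 0 orange points, and the immediate early and heat shock list has 10 orange points of 12.

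The largest ratios in the other direction included Reg1, Fabp1 and several genes of metabolic enzymes, a grouping made after the values were seen and not counted as a list. Fabp1, a fatty acid carrier of enterocytes, was at 102 CPM (94.1 to 109) in members and 493 CPM (486 to 501) in comparison cells, a log2 ratio of -2.27. The antioxidant enzyme Gsta1 was at 251 CPM (239 to 263) against 679 CPM (671 to 688). Reg1, a secreted lectin, was at 2.97 CPM (1.82 to 4.59) against 47.1 CPM (44.8 to 49.5), with 40.2% of the comparison UMIs in 3 cells. The cytochrome genes Cyp2c29 and Cyp2b10 had log2 ratios of -2.18 and -2.16, the alcohol dehydrogenase Adh1 -1.82 and Cfhr2 -1.52. Dmbt1, a mucosal scavenger receptor, was at 110 CPM (102 to 118) against 241 CPM (236 to 247), and at 2000 UMIs its expected share was 17.8% of members and 32.5% of comparison cells. Of 11 enterocyte markers tested, 7 were lower with intervals apart and 0 higher, with a median of -0.45.

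Goblet and Paneth markers were lower in summed level but not in the typical cell. Of 7 goblet markers tested, 6 were lower with intervals apart, and of 7 Paneth markers 4 were. Tff3, a goblet trefoil factor, was at 32.7 CPM (28.5 to 37.3) against 141 CPM (137 to 145), yet it was detected in 39.5% of members and 40.1% of comparison cells. In members 61.4% of Tff3 UMIs lay in 3 cells, and in comparison cells 43.1%. Spink4 (-1.51), the goblet mucus protein Fcgbp (-2.29) and the Paneth lysozyme Lyz1 (-2.32) had 47.2%, 39.1% and 46.2% of the comparison UMIs in 3 cells. The whole goblet list had a median per cell of 96.4 CPM in members and 95.7 CPM in comparison cells, with a highest cell of 3076 and 76808 CPM. The Paneth list had medians of 390 and 387 CPM per cell, and the enterocyte list 1637 and 2399 CPM. Enteroendocrine markers summed to 94.5 and 96.9 CPM, with 0 of 11 apart in either direction, but this list holds Chgb, which was limited in both groups. In set 2 the Paneth list differed from this: it summed to 1284 CPM in members and 1274 CPM in comparison cells, with medians of 252 and 669 CPM per cell. The goblet list of set 2 summed to 101 and 401 CPM, with medians of 77.8 and 75.6 CPM per cell.

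Markers of cells from outside the epithelium were close to absent in the members of set 1. The 8 immune markers summed to 0.595 CPM (0.162 to 1.52) with 6 at 0, among them Ptprc and Cd3e. The 9 mesenchymal and endothelial markers summed to 2.97 CPM (1.82 to 4.59) with 8 at 0, among them Col1a1 and Pdgfra, and all of it came from Pecam1. Of 8 tuft markers 4 were at 0, and 5 tuft UMIs were counted in all. No doublet caller was run, and leaving out the 5% of barcodes with most UMIs gave 19 higher genes in place of 30.

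Immediate early and heat shock genes, which also respond to cell dissociation, were lower in members. Of 12 tested, 10 had a lower level with intervals apart and 0 a higher one, with a median of -0.40. Atf3 stood at 76.0 CPM (69.5 to 82.8) against 179 CPM (174 to 184), and Egr1 at 140 CPM (131 to 149) against 226 CPM (221 to 231). The ErbB list held 3 lower genes of 10, namely the ligands Areg and Hbegf and the feedback inhibitor Errfi1. Areg was at 40.4 CPM (35.8 to 45.5) against 92.6 CPM (89.4 to 96.0). The part of handling stress in the ratios above was not tested.

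None of the division genes tested reached a 2-fold ratio. Of 16 DNA replication genes, 4 were lower with intervals apart, where 5.24% of all genes were lower, and 0 were higher, with a median of -0.21, and the reductase subunit Rrm2 was at 56.9 CPM (51.4 to 62.9) against 81.3 CPM (78.2 to 84.4). Of 16 mitosis genes, Ccnb2 and Cenpa were slightly higher and Mki67 slightly lower, with log2 ratios of 0.22, 0.18 and -0.20. Mki67 was detected in 93.6% of members. At 2000 UMIs, 24.1% of members and 25.3% of comparison cells were expected to show it, against 3.70% of Chgb-rich cells.

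Regenerative and YAP target genes, the subject named in the study's title, were not raised as lists. Of 16 regenerative genes tested, Krt7 was higher with intervals apart and 6 were lower, and the median was -0.32. Anxa2 was at 47.0 CPM (41.9 to 52.5) against 90.1 CPM (86.9 to 93.4). Ly6a, the fetal-like marker also called Sca-1, held 3 UMIs in members, and 95.6% of its 68 UMIs in comparison cells lay in 3 cells. Clu, the marker of revival stem cells, was seen as 1 UMI in 1 of 172 members. Of 14 YAP targets tested, 2 were higher with intervals apart (Arhgef17 and Crim1) and Gadd45a was lower, with a median of -0.11. Of 6 prostaglandin E2 genes tested, 0 were apart in either direction, and the receptor gene Ptger4 stood at 5.35 CPM (3.75 to 7.41) against 6.75 CPM (5.90 to 7.70).

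Igfbp4, Ifitm3 and Fmr1nb tended to fall in the same members. In set 1, 95 of 172 members held none of the 3 RNAs, 24 held all 3, 26 held Ifitm3 only, 15 Igfbp4 only, 9 Igfbp4 with Ifitm3, 2 Fmr1nb only and 1 Ifitm3 with Fmr1nb. Of 27 members with Fmr1nb, 25 held another of the 3, and of 48 members with Igfbp4, 33 held Ifitm3. Counting the 3 genes together, 57 members held at least 2 UMIs (33.1%, 26.2 to 40.7%), 20 held exactly 1 and 95 held 0. Among comparison cells 104 of 917 held at least 2 (11.3%, 9.36 to 13.6%). In set 2, 4 of 10 members held at least 2, and 3 of those held all 3 RNAs.

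The share with these RNAs was larger in cells with more Olfm4. In set 1 it was 8.91% of cells with 0 Olfm4 UMIs, 8.22% with 1, 13.6% with 2, 23.7% with 3 to 4, 43.6% with 5 to 9 and 49.0% (34.8 to 63.4%) with 10 or more. In set 2 it was 6.92% (5.65 to 8.38%) of 1401 cells with 0 Olfm4 UMIs and 19.4% (7.45 to 37.5%) of 31 cells with 1. The 51 cells of set 1 with 10 or more held 70.5% of the Olfm4 UMIs of cells under the Chgb limit. Over the bins of set 1 the share of cells without a Dmbt1 UMI was 32.7%, 25.3%, 27.3%, 23.7%, 48.7% and 54.9%. Deeper cells are more likely to show any RNA, and the median depth of the last bin was 42751 UMIs against 38063.5 in cells with exactly 2.

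**Figure D4:**
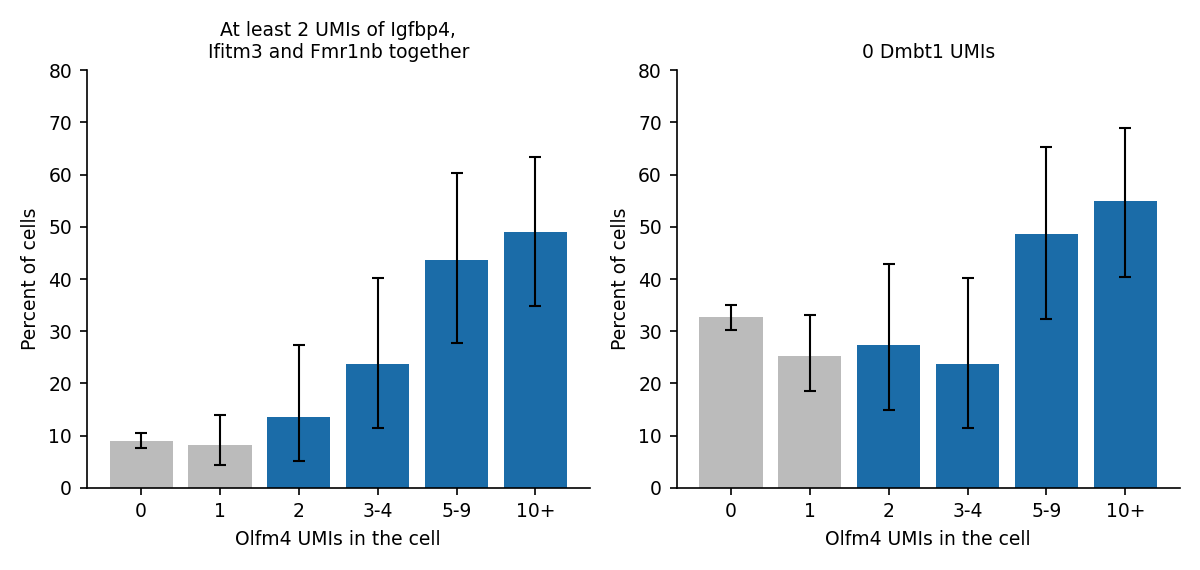
Percent of set 1 cells under the Chgb limit (y axis) by Olfm4 UMIs in the cell (x axis) with at least 2 UMIs of Igfbp4, Ifitm3 and Fmr1nb together (left) or with 0 Dmbt1 UMIs (right); bars are shares, error bars exact 95% intervals, and blue bars are members. The left share runs from 8.91% at 0 to 49.0% at 10 or more, and the right one from 32.7% to 54.9%.

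Members with and without these 3 RNAs differed in many other genes. The split at 2 or more against 0 UMIs was drawn after the values had been seen, the 20 cells with exactly 1 UMI were left out, and nothing is read from the 3 genes themselves. Over 10540 genes tested, 98 were at least 2-fold higher in the 57 positive members with intervals apart (0.93%) and 68 were lower (0.645%). Median depth was 46640 UMIs in positive and 38047 in negative members. Olfm4 was at 368 CPM (344 to 392) in positive and 182 CPM (168 to 197) in negative members. Lgr5 was at 143 CPM (128 to 158) and 132 CPM (120 to 145), with overlapping intervals. Both kinds of member therefore carried the Lgr5 label at a similar summed level.

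In positive members Cyba stood at 153 CPM (139 to 169) against 45.3 CPM (38.5 to 53.0), and Rcor2 at 41.0 CPM (33.5 to 49.7) against 8.18 CPM (5.44 to 11.8). Krt7 was at 68.2 CPM (58.4 to 79.2) against 17.8 CPM (13.6 to 22.9) and Lgals1 at 39.4 CPM (32.1 to 48.0) against 12.3 CPM (8.85 to 16.6). Ddah1 (2.79), Mt4 (2.66), Cox6b2 (1.81), Tst (1.68), the tight junction gene Cldn4 (1.62) and the cell cycle inhibitor Cdkn1a (1.37) had log2 ratios in the same direction. Clps and Tff3 did as well, but 3 cells held 92.2% and 79.9% of their UMIs in positive members. Cyba, Lgals1, Rcor2, Krt7 and Tst thus stood higher in members than in comparison cells and in positive than in negative members. In negative members alone, the Cyba interval overlapped that of the comparison cells. Krt7 was not higher with intervals apart in negative members than in comparison cells without the 3 RNAs.

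Among the named genes Dmbt1 had the largest ratio in the opposite direction, at 26.0 CPM (20.1 to 33.1) in positive and 169 CPM (155 to 183) in negative members, and was detected in 31.6% and 73.7% of them. The carboxylesterase Ces2a was at 86.0 CPM (74.9 to 98.2) against 275 CPM (258 to 293). Pdx1, a transcription factor of the duodenum and pancreas, was at 6.31 CPM (3.61 to 10.2) against 20.8 CPM (16.2 to 26.2). Adh1 (-2.30), Aadac (-1.84), Foxq1 (-1.76), Areg (-1.50), Dpyd (-1.49), Cth (-1.42), Meis2 (-1.40) and St3gal4 (-1.40) were also lower. Hspa1a was lower at -1.36, with 87.5% of the UMIs of positive members in 3 cells. Onecut2, a transcription factor of the proximal intestine, was at 95.8 CPM (84.2 to 109) against 146 CPM (133 to 159), while Gata4 had overlapping intervals.

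**Figure D5:**
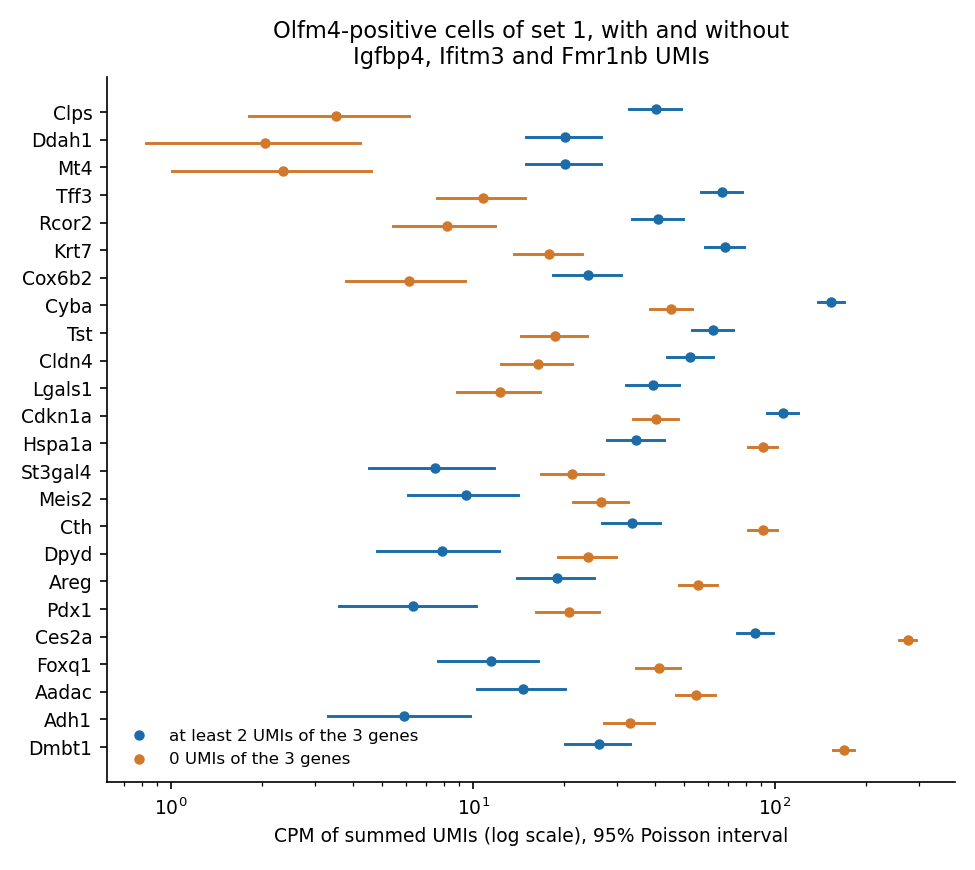
CPM of summed UMIs (x axis, log scale) with 95% Poisson intervals for the 24 named genes (y axis) in 57 Olfm4-positive cells of set 1 with at least 2 UMIs of Igfbp4, Ifitm3 and Fmr1nb together (blue) and 95 with 0 (orange). Cyba, Rcor2 and Krt7 are to the right in the first group, and Dmbt1, Ces2a and Pdx1 in the second.

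By list, 6 of 22 crypt and Wnt genes were higher in positive members with intervals apart and 0 lower, against 4.44% and 3.73% of all genes. The median was 0.34, with Axin2 at 86.8 CPM (75.7 to 99.0) against 50.9 CPM (43.6 to 59.0) and Smoc2 at 239 CPM (220 to 259) against 169 CPM (155 to 183). Clca3b, at 136 and 141 CPM, had overlapping intervals. Of 16 mitosis genes 6 were lower in positive members and 0 higher, with a median of -0.26, and the anaphase enzyme gene Ube2c was at 576 CPM (547 to 606) against 783 CPM (754 to 814). Mki67 stood at 129 CPM in both. Of 4 IGF genes tested, the receptors Igf1r and Igf2r were higher and the stanniocalcin gene Stc2 was lower (4.34 against 12 CPM), with Igf2r at 46.9 CPM (38.9 to 56.2) against 20.5 CPM (15.9 to 25.8). The Notch ligand Dll1 was at 16.6 CPM (11.9 to 22.4) against 6.43 CPM (4.03 to 9.74), and Bmp7 at 20.5 CPM (15.3 to 26.9) against 8.77 CPM (5.92 to 12.5). Of 4 goblet genes tested, Tff3 and Agr2 were higher with intervals apart and 0 lower. Agr2 was at 68.6 CPM (58.8 to 79.6) against 38.3 CPM (32.0 to 45.4). Of 6 enteroendocrine genes tested, Neurog3 was higher with intervals apart and 0 were lower. Of 12 immediate early and heat shock genes, 9 were lower in positive members, and of 8 interferon genes other than Ifitm3, 0 were apart.

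The negative members alone were set against the 691 comparison cells that also held 0 UMIs of the 3 genes. Of 12459 genes, 16 were at least 2-fold higher with intervals apart (0.128%) and 64 lower (0.514%), and by any fold the shares were 1.88% and 3.19%. Of 22 crypt and Wnt genes tested, Clca3b, Ascl2, Rgmb, Axin2 and Slc12a2 were higher with intervals apart and 0 lower, and the median was 0.17. Of 16 mitosis genes 5 were higher and 1 lower, and of 16 replication genes 7 were lower. Crypt genes above the comparison cells were thus also seen among members without the 3 marker RNAs.

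The sets differed in how often a cell with the 3 RNAs was a member. Cells with at least 5 UMIs of the 3 genes made up 112 of 1867 cells under the Chgb limit in set 1 (6%, 4.96 to 7.17%) and 53 of 1442 in set 2 (3.68%, 2.77 to 4.78%). Of these, 41 were members in set 1 (36.6%, 27.7 to 46.2%) and 3 in set 2 (5.66%, 1.18 to 15.7%). A further 7 of these cells in set 1 and 6 in set 2 held 1 Olfm4 UMI, below the limit of the rule. Among cells with 0 UMIs of the 3 genes, 95 of 1453 were members in set 1 (6.54%, 5.32 to 7.93%) and 5 of 1205 in set 2 (0.415%, 0.135 to 0.966%). Olfm4-positive cells were thus less frequent in set 2 among cells with and without the 3 RNAs alike, with counting intervals apart in both. The Olfm4 level in Chgb-rich cells, 6.43 CPM in set 1 and 0.816 CPM in set 2, differed in the same direction. Away from the limit, at 5 or more Olfm4 UMIs, there were 90 cells in set 1 and 3 in set 2. Treatment, pooled organoid lines and library cannot be told apart in this design.

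Of the 12 genes named for the largest ratios in set 1, 11 were also higher in the 10 members of set 2, 8 with intervals apart, and Crim1 was not (4.83 against 16 CPM, intervals overlapping), and of the 12 named for the smallest, 12 were lower, 9 with intervals apart. Over 12271 genes, 107 were at least 2-fold higher than in the comparison cells of set 2 with intervals apart (0.872%) and 124 lower (1.01%), and by any fold the shares were 2.69% and 2.14%. Cyba was at 162 CPM (125 to 205) against 26.6 CPM (24.6 to 28.7), and Noxo1 at 67.6 CPM (44.9 to 97.7) against 11.5 CPM (10.2 to 12.9). Ifitm3 was at 41.0 CPM (23.9 to 65.7) against 5.88 CPM (4.97 to 6.92), Igfbp4 at 45.9 CPM (27.6 to 71.6) against 8.93 CPM (7.79 to 10.2) and Fmr1nb at 16.9 CPM, from 7 UMIs, against 3.32 CPM (2.65 to 4.12). Few cells carried these sums: 3 cells held 85.1% of the Cyba, 85.7% of the Noxo1, 88.2% of the Ifitm3, 94.7% of the Igfbp4 and 100% of the Fmr1nb UMIs. Axin2 was at 79.6 CPM (54.8 to 112) against 32.1 CPM (29.9 to 34.4), but 1 cell held 19 of its 33 UMIs, the median cell stood at 23.2 against 24.4 CPM, and 60% of members and 59.5% of comparison cells held it. Reg3g, an antimicrobial lectin, and the Paneth protease gene Mmp7 were also called higher, from 15 UMIs in 3 cells and 4 UMIs in 1 cell. Other genes of their lists went the other way. Of 6 Paneth genes tested, Mmp7 and Itln1 were higher with intervals apart and Nupr1 lower, at 62.7 against 164 CPM, with a list median of -0.61. Of 5 Reg and lectin genes tested, Reg3g was higher and Dmbt1 lower, at 45.9 against 91.5 CPM. Fabp1 was at 45.9 CPM (27.6 to 71.6) against 470 CPM (461 to 478). Ascl2, with 4 UMIs, and Lgals1, with 4, had overlapping intervals. Of 12 immediate early and heat shock genes, 7 were lower with intervals apart and 1 higher.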

How the data were processed

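Droplet-based 3′ libraries (10x Genomics v3 chemistry) of the control and melatonin samples were read from 1 deposited matrix of whole-number UMI counts, 31053 genes by 21806 barcodes, with no normalization. Per the submitters' processing notes, Cell Ranger 3.1.0, bcl2fastq 2.20.0 and STAR 2.7.3a were used. The genome build is not given in the sources used here; 30934 gene identifiers matched GENCODE M21. Columns of per-sample values left unused numbered 0. Members and lists were chosen with earlier results of these data known. UMIs were summed over cells, scaled to CPM and given exact Poisson intervals; shares have Clopper-Pearson intervals, all at the 95% level. Log2 ratios used CPM plus a pseudocount of 1, which understates low genes. Shares at 2000 UMIs are hypergeometric expectations. Cells are not replicates, so no test was run. Named genes were the marker genes, the 12 largest and 12 smallest log2 ratios among genes at 20 CPM or more in either group with intervals apart, and the 4 largest absolute log2 ratios of each of 25 lists. Of the genes this rule names, 1 is not reported here, and not every list gene is given with its value. Set 2 held fewer than the 20 members this rule asked for. Further genes were chosen after their values were seen: those given for set 2, Hes1, Nfkbia, Ifitm2, Smoc2, Slc12a2, Sox9, Gadd45a, Errfi1, Clu and list genes with intervals apart. Python 3.11.15, numpy 2.4.6, scipy 1.17.1 and pandas 2.3.3 were used. Alternatives changed the Olfm4, Lgr5, Chgb and mitochondrial limits, the pseudocount, the UMI minimum and the cells left out.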

Additional observations from a re-analysis of the deposited data

Results flagged for a closer look

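Barcodes with over 20% mitochondrial UMIs, which enter no comparison above, also held Olfm4. In set 1, 98 of 6110 such barcodes met the Olfm4 and Chgb limits, and in set 2, 8 of 3671 did. A count of 0 would allow a limit of 3 barcodes, but that limit takes no account of free RNA, whose part was not tested. Over all 6110 and 3671 barcodes, Olfm4 stood at 22.7 and 3.13 CPM. The 98 and 8 barcodes, themselves picked by Olfm4, were singled out because counts appeared in data outside the main measurement. The barcodes of set 1 had medians of 43.9% mitochondrial and 8896 total UMIs, those of set 2 medians of 43.1% and 10479. In set 1, 29 of the 98 held at least 2 UMIs of Igfbp4, Ifitm3 and Fmr1nb together (29.6%, 20.8 to 39.7%) and 57 held Lgr5 (58.2%). In set 2, 4 of the 8 held the 3 RNAs at that level and 4 held Lgr5.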

How the results depend on the processing

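Of 1633 alternative log2 ratios for 99 named genes, 1423 moved by less than the counting interval, 209 moved further and 1 changed sign, Defa24, at 0.24 when comparison cells needed 5 Lgr5 UMIs. Of 20 shares at a fixed depth 14 moved, since keeping more UMIs per cell raises a share by construction: 24.4% of set 1 members with Lgr5 at 2000 UMIs became 94.8% without thinning. The number of members (172 in set 1, 10 in set 2) became 318 and 41 with 1 Olfm4 UMI, 90 and 3 with 5, and 270 and 18 with no mitochondrial limit. It was 111 in set 1 with a limit of 10% and 4 in set 2 with Olfm4 counted per 10000 UMIs. Genes higher in set 1 (30) became 84 with 5 Olfm4 UMIs, 77 per 10000 UMIs, 60 with no Chgb limit, 19 without the 5% of barcodes with most UMIs, 64 and 4 with pseudocounts of 0.1 and 10, and 16 without members holding the 3 marker RNAs, an alternative chosen after seeing the data. Genes lower in set 1 (56) became 19 and 111 with 1 and 5 Olfm4 UMIs, 98 per 10000, 87 and 35 with 1 and 5 Lgr5 UMIs, and 97 and 17 with those pseudocounts. In set 2, the 107 higher genes became 243, 240 and 24 with 1 Olfm4 UMI, 5 Olfm4 UMIs and a pseudocount of 10, and the 124 lower became 48 with 1 Olfm4 UMI. The cause of these shifts was not tested. Leaving out members with the 3 marker RNAs gives no value for those 3 genes. No paired analysis was possible because both samples hold 1 matrix and the labels give no replicate numbers. Depth limits low genes: at fewer than 10 UMIs over both groups no ratio was taken, and values in set 2 rest on 10 cells.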

Other observations

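Cells with at least 5 UMIs of Igfbp4, Ifitm3 and Fmr1nb together but 0 Olfm4 UMIs numbered 64 in set 1 and 44 in set 2. Lgr5 was detected in 85.9% of them in set 1 (118 CPM) and 65.9% in set 2 (48.8 CPM). Dmbt1 stood at 30.7 and 2.95 CPM and Pdx1 at 7.31 and 6.32 CPM, beside 26.0 and 6.31 CPM in the Olfm4-positive cells of set 1 that held the 3 RNAs. Anxa1, a gene of regenerating epithelium, was detected in 4 of the 64 (6.25%, 1.73 to 15.2%) and in 11 of the 44 (25.0%, 13.2 to 40.3%). Among the 57 Olfm4-positive cells with the 3 RNAs in set 1 it was detected in 0, which allows a summed level of up to 1.18 CPM by 3 counts. In set 2 it was detected in 1 of the 4 such cells (25%, 0.631 to 80.6%). Clu was detected in 3 of the 64 and 14 of the 44, and in 1 of the 57. S100a6 stood at 587 and 1749 CPM in the Olfm4-free cells, with 95% and 80.4% of the UMIs in 3 cells, and at 16.2 CPM in the 57 and 60.4 CPM in the 4 Olfm4-positive cells. The goblet genes also differed. Tff3 stood at 1022 and 3024 CPM in the Olfm4-free cells, with 66.4% and 75.7% of the UMIs in 3 cells, and at 66.6 CPM in the 57. Spink4 stood at 889 and 3104 CPM, with 80.5% and 87.0% in 3 cells, and at 58.4 CPM in the 57. These cells were grouped after their values had been seen, and no test was run.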
